A study of Homo sapiens with 6 samples.

Results

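The genes described here encode the proteins of the cytosolic ribosome. They were taken from the deposited gene count table as the protein-coding rows whose symbols follow the RPS and RPL naming scheme, together with RPSA, RPLP0, RPLP1 and RPLP2. Of 81 matching symbols, RPS27L was left out by name, RPL17 because it lies on chromosome 18, and RPS14 because it lies in a stretch of chromosome 5. Chromosome 18 and that stretch were set aside because earlier results of these data had shown regional shifts there. The remaining 78 genes of 58735 in the table comprised 30 of the small subunit and 48 of the large subunit. Of these, 76 had enough counts to be tested, and 15400 genes were tested in all. RPL3L and RPL10L were the members that did not pass the filter on low counts.

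Poly(A)-selected RNA of human ovarian carcinoma cells was sequenced in 3 control and 3 BARD1-expressing libraries, each labelled 48 h, to ask how BARD1 affects angiogenesis pathways. BARD1 binds BRCA1, and the pair acts as a ubiquitin ligase. The BARD1-expressing cells had received the BARD1 open reading frame by lentiviral transduction, the protocol names the product GFP-BARD1, and the cells of both groups are labelled as stable cells. The control genotype is given only as control, and neither an empty vector nor the number of clones is named in the labels. Titles and the growth protocol name the line OVCAR8ip1, an ovarian carcinoma line, whereas other tags give SKOV3ip1 as the line and SKOV3ip1 tumors as the tissue. The cell type tag gives high grade serous ovarian adenocarcinoma for both groups. Replicates are labelled biological, but separate cultures or transductions are not named, and p-values therefore rest on the spread among these 6 libraries alone.

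The cytosolic ribosome is built from a small subunit, which reads the mRNA, and a large subunit, which joins amino acids and releases the chain through an exit tunnel. Most of its proteins are made in near-equal amounts, and many of their mRNAs begin with a C followed by an uninterrupted run of pyrimidines, the 5′ terminal oligopyrimidine (TOP) tract. Through this tract the mTOR pathway and the RNA-binding protein LARP1 control the translation and storage of these mRNAs, so that a change in ribosome output need not show in the mRNA level. Transcription of the genes is supported by MYC, and unassembled RPL5 and RPL11 bind the ubiquitin ligase MDM2.

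The start windows below show the TOP tract in the 10 members with such a start that were called higher or lower in BARD1-expressing cells, in RPL39, whose tract was the longest among the members with a RefSeq entry, and show RPS4X as a member without such a start. Each window runs from 10 bases before the RefSeq start to the 20th base from it (GRCh38.p14, 5′ to 3′ on the gene's strand), and capitals mark the pyrimidine tract from the start base on.
RPL31: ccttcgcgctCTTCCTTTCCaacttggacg
RPL13: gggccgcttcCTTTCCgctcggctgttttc
RPL13A: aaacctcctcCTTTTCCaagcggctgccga
RPL7A: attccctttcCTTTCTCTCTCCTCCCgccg
RPS3: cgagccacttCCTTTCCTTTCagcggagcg
RPS18: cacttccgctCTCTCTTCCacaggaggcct
RPS23: cggtgcttctCTCTTTCgctcaggcccgtg
RPS24: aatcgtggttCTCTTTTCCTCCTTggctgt
RPLP0: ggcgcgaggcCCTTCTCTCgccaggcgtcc
RPS10: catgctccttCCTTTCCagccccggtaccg
RPL39: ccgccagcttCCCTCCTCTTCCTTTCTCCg
RPS4X: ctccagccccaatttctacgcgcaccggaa
On the plus strand lie RPL31 at chr2:101002279-101002308, RPL13 at chr16:89560672-89560701, RPL13A at chr19:49487598-49487627, RPL7A at chr9:133348208-133348237, RPS3 at chr11:75399508-75399537, RPS18 at chr6:33272065-33272094 and RPS24 at chr10:78033853-78033882. On the minus strand lie RPS23 at chr5:82278335-82278364, RPLP0 at chr12:120201092-120201121, RPS10 at chr6:34426050-34426079, RPL39 at chrX:119791611-119791640 and RPS4X at chrX:72277229-72277258. A TOP start was counted where a RefSeq start base was C and at least the next 4 bases were C or T, on the gene's own strand. Only annotated start bases were read, so a pyrimidine run further in, as in the windows of RPL27 and RPL4, was not counted. Of the 61 members with a RefSeq entry, 45 (73.8%) had such a start, compared with 1404 of 27305 symbols (5.14%) in the same table. The other 17 members had no entry.

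BARD1 was first checked in every library. It was counted 414, 392 and 420 times in the controls and 623, 1072 and 688 times in the BARD1-expressing libraries, which is 17.9 ± 1.30 against 46.3 ± 2.43 CPM (counts scaled to a common library total with TMM factors, which use a trimmed mean of the genes' log ratios; mean ± SD, n = 3 each). The log2 fold change was 1.37 ± 0.081 (SE), with an adjusted p of 4.67e-12 by edgeR's quasi-likelihood test. An exact two-sided permutation test gave p = 0.1, the smallest that 3 libraries against 3 allow. The libraries held 12744310 to 24349158 counts, and the shallowest was BARD1-expressing library 1. A count of 0 allows up to 3 counts, or 0.124 to 0.236 CPM, and such limits cover counting error only. Of the epithelial markers, KRT8, KRT18 and KRT7 were abundant and KRT19 had no count. KRT7 was called higher, at 842 CPM in controls and 1066 CPM in BARD1-expressing libraries, as was MUC1, at 10.4 and 13.6 CPM. KRT8, KRT18, EPCAM and CDH1 were not called. CDH1 was at 1.08 CPM in controls. Serous ovarian markers went both ways. PAX8 fell from 143 to 91.4 CPM (adjusted p = 1.19e-08 by edgeR) and CRABP2 from 11.5 to 7.68 CPM. BCAM rose from 37.6 to 52.9 CPM and FOLR1 from 2.56 to 3.80 CPM. WT1 was called higher at a low level, 0.394 against 0.966 CPM, with overlapping groups. MSLN was not called, at 183 and 191 CPM, SOX17 was at or near 0 and MUC16 had no count. Fibroblast and pericyte markers went both ways too. COL1A1 was called lower, at 1054 CPM in controls and 845 CPM in BARD1-expressing libraries. PDGFRB, in the chromosome 5 stretch, was called higher, at 4.81 against 13.75 CPM. LUM (0.186 against 0.795 CPM) and ACTA2 (0.303 against 0.770 CPM) were called higher at low levels. PDGFRA, COL1A2 and COL3A1 were at or near 0, and DCN had no count. The part of these markers in the results below was not tested. Leukocyte markers summed to at most 2.15 CPM in any library.

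Ribosomal protein mRNAs were abundant in these cells, with 71 of the 78 at 100 CPM or more over all libraries, and differed little between the groups. Together the 78 members took 5.70%, 5.50% and 5.29% of all counts in the control libraries and 5.28%, 6.01% and 5.80% in the BARD1-expressing libraries. The mean share was 5.50 ± 0.204% against 5.70 ± 0.374% (SD, n = 3 each), a difference of 0.198 percentage points, and the groups overlapped. BARD1-expressing library 1 held the lowest share of all 6 libraries, and library 2 the highest. The small subunit accounted for 1.97% of control and 2.03% of BARD1-expressing counts and the large subunit for 3.53% and 3.66%. Mitochondrially encoded genes took 2.12 ± 0.258% of control and 1.15 ± 0.175% of BARD1-expressing counts, and with those genes left out of the total the members' share was 5.62% and 5.76%. In such bulk libraries fewer cells that express a gene and less of its RNA per cell cannot be told apart.

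In BARD1-expressing cells 13 members were called higher and 3 lower at an adjusted p under 0.05 (edgeR). The 13 higher members are 17.1% of the 76 tested, beside 16.5% of all genes tested, and the 3 lower members are 3.95%, beside 12.4%. The share called higher thus lay near the background. Among 2292 other genes of at least 100 CPM, 22.9% were called higher and 16.6% lower. The median log2 fold change (BARD1-expressing over control) was 0.059 over the tested members and -0.003 over all genes tested. It was above 0 in 58 members, and 71 of 76 lay within 0.25 of 0. All 3 BARD1-expressing libraries lay above all controls in 14 members (18.4%, beside 21.7% of all genes tested) and below them in 4 (5.26%, beside 19.2%), while the groups overlapped in the other 58. In the small subunit 5 members were called higher and 2 lower of 30, with a median of 0.021, and in the large subunit 8 were called higher and 1 lower of 46, with a median of 0.074.

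**Figure D1:**
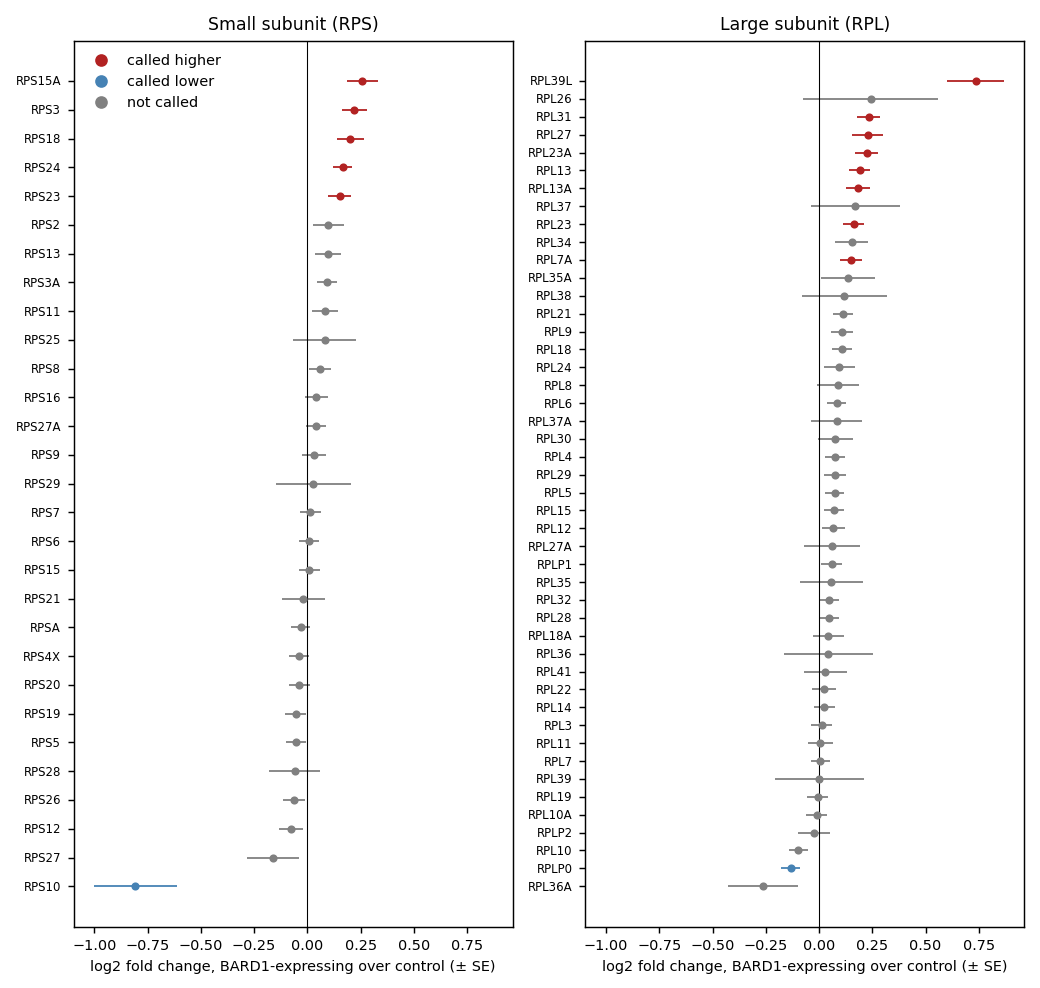
Log2 fold change of the tested members that are reported (x axis, BARD1-expressing over control, bars ± SE of the fit), the small subunit on the left and the large subunit on the right, coloured by call. Most points lie within 0.25 of 0, with RPL39L at 0.74 and RPS10 at -0.81 as the farthest on either side.

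The number of higher calls moved with single libraries. Without BARD1-expressing library 1 it rose to 29 of 76 members (38.2%, beside 16.6% of all genes tested in that fit), which comprised the 13 and 16 more, among them RPS2, RPS13, RPL8, RPL34, RPL37 and RPL38. Without BARD1-expressing library 2 it was 6 (7.90%, beside 14.3% of all genes) and without library 3 it was 5 (6.58%, beside 12.3%). Leaving out control library 2 gave 5 (6.58%, beside 12.9%), control library 3 gave 7 (9.21%, beside 14.2%) and control library 1 gave 11 (14.5%, beside 13.4%). In all 15 alternative fits, RPL39L, RPL31, RPL23A and RPL13 were called higher and RPS10 lower. RPS3 was called higher in 14 of the 15, RPS24 and RPS15A in 12, RPL23 and RPL13A in 11, RPS18 and RPL27 in 9, and RPL7A and RPS23 in 5.

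RPL39L, the paralog of the exit-tunnel protein RPL39 that is best known from male germ cells, had the largest rise among the members. The gene lies on chromosome 3, 187120948 to 187180908, on the minus strand (GRCh38). It was counted 135, 114 and 115 times in controls and 101, 223 and 138 times in BARD1-expressing libraries, or 5.57, 4.99 and 5.31 CPM against 7.94, 9.21 and 9.16 CPM. All 3 BARD1-expressing libraries lay above all controls. The log2 fold change was 0.74 ± 0.13 (SE), with an adjusted p of 0.000171 by edgeR, and it ranged from 0.69 to 0.79 over the alternatives. The median log2 fold change of its 20 nearest tested neighbours on the chromosome was -0.101.

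RPL39 itself, which encodes a protein of the same length, was at 257, 234 and 198 CPM in controls and at 173, 267 and 247 CPM in BARD1-expressing libraries. Its groups overlapped, and the log2 fold change was 0.001, with a 95% interval from -0.57 to 0.57. Per coding base, RPL39L stood at 2.17%, 2.13% and 2.69% of RPL39 in controls and at 4.60%, 3.45% and 3.71% in BARD1-expressing libraries. The percentage was higher in every BARD1-expressing library, and was highest in library 1, where RPL39 was lowest. The other tissue-restricted paralogs were hardly counted. RPL3L, the striated muscle paralog of the core protein RPL3, had 2, 4 and 1 counts in controls and 1, 2 and 0 in BARD1-expressing libraries. RPL10L, the testis paralog of RPL10, had no count in any library.

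**Figure D2:**
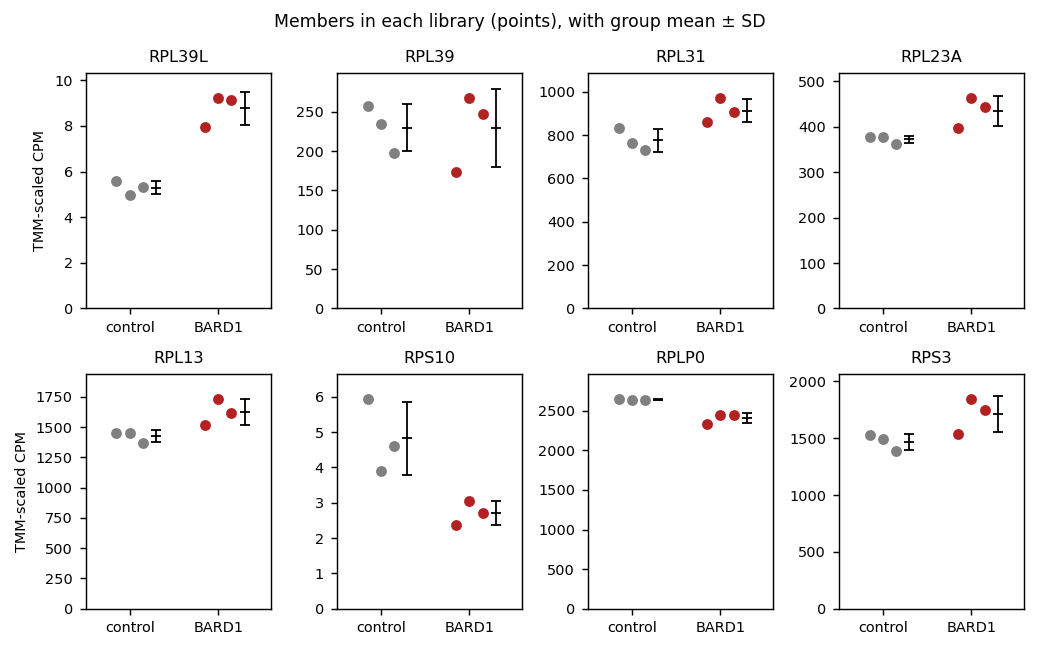
TMM-scaled CPM of selected members in each library (points, replicates 1 to 3 from left to right within a group; grey control, red BARD1-expressing), with the group mean and SD in black; each y axis starts at 0. RPL39L separates the groups whereas RPL39 overlaps, and RPS10 lies at 5.94 CPM or less in every library.

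The other large subunit members called higher rose by small amounts. RPL31, a protein at the rim of the exit tunnel, was at 834, 763 and 730 CPM in controls and at 861, 969 and 907 CPM in BARD1-expressing libraries. The groups did not overlap, and the log2 fold change was 0.23 ± 0.054, with an adjusted p of 0.00202 by edgeR. RPL23A, which with its neighbours at the tunnel exit contacts the signal recognition particle, was at 376, 378 and 363 CPM against 398, 462 and 443 CPM. Its libraries separated too, at a log2 fold change of 0.22 ± 0.054. Of the RPL23A coding bases, 33.1% also lie in an antisense gene, and the use of strand in counting is not stated, so reads of the pair cannot be told apart.

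RPL13 was at 1455, 1453 and 1367 CPM in controls and at 1522, 1735 and 1620 CPM in BARD1-expressing libraries, a log2 fold change of 0.19 ± 0.051 without overlap. RPL23 had a log2 fold change of 0.16 ± 0.048, also without overlap. RPL13A, known outside the ribosome as part of a complex that silences inflammatory mRNAs, was at 1197, 1146 and 1070 CPM against 1176, 1383 and 1313 CPM. BARD1-expressing library 1 lay inside its control range, and RPL13A kept its call (0.18 ± 0.056) in 11 of 15 alternatives. RPL27 (0.23 ± 0.072) and RPL7A (0.15 ± 0.052), the remaining calls of the large subunit, overlapped between groups as well. RPL27, RPL7A and RPS23 fall outside the rule for named genes and are given because they complete the count.

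In the small subunit, RPS3, a protein of the mRNA entry channel that also has DNA repair activity, was at 1528, 1491 and 1390 CPM in controls and at 1539, 1848 and 1751 CPM in BARD1-expressing libraries. The lowest BARD1-expressing library lay just above the highest control, and the log2 fold change was 0.22 ± 0.058, with an adjusted p of 0.00611 by edgeR. RPS24, one of the genes mutated in Diamond-Blackfan anaemia, was at 516, 527 and 546 CPM against 596, 596 and 591 CPM. Its BARD1-expressing libraries were nearly equal and all above the controls (0.17 ± 0.046), and the median of its 20 neighbours was 0.236. RPS15A rose by 0.26 ± 0.074 without overlap. Of its coding bases, 54.6% also lie in a gene on the same strand, so its values too are uncertain. RPS18, a protein of the small subunit head, rose by 0.20 ± 0.064, and RPS23, a protein of the decoding centre, by 0.15 ± 0.053. In both, BARD1-expressing library 1 lay within the control range, and 54.1% of the RPS23 coding bases also lie in ATG10 on the opposite strand.

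Members called lower differed widely in level. RPLP0, the base of the acidic stalk that recruits elongation factors to the large subunit, was at 2651, 2634 and 2637 CPM in controls and at 2337, 2441 and 2441 CPM in BARD1-expressing libraries. The groups did not overlap, but the change was small, at -0.13 ± 0.044 (adjusted p = 0.0239 by edgeR). The call was kept in 9 of 15 alternatives, and was lost when any library other than BARD1-expressing library 2 was left out and with the replicate number as a block. The stalk proteins that sit on RPLP0 were not called. RPLP1 was at 0.059 ± 0.048 and RPLP2 at -0.023 ± 0.075, with 95% intervals from -0.04 to 0.16 and from -0.19 to 0.14. RPL10, which completes the peptidyl transferase centre late in assembly, had all 3 BARD1-expressing libraries below the controls, at 870, 908 and 899 against 964, 955 and 948 CPM, but did not pass the test (-0.098 ± 0.045, adjusted p = 0.109 by edgeR).

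RPS10, a protein of the small subunit head, was counted 144, 89 and 100 times in controls and 30, 74 and 41 times in BARD1-expressing libraries. These are 5.94, 3.90 and 4.61 CPM against 2.36, 3.06 and 2.72 CPM, with no overlap, and the log2 fold change was -0.81 ± 0.20 (adjusted p = 0.0029 by edgeR). RPS10 was far below the level of most other members. Of its coding bases, 92.1% also lie in exons of the readthrough gene RPS10-NUDT3 on the same strand, which had at most 1 count in any library. The sources used here do not say how reads over shared bases were counted, so the values of RPS10 are uncertain as a level and as a change of this gene.

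Other members of low level shared coding bases as well. Per kilobase of coding sequence, the tested members had a median of 1266 CPM over all libraries, and low levels were found for RPS10 at 7.61, RPL36A at 15.5, RPL39L at 45.9 and RPL26 at 88.1. RPL24 came next at 355. RPL36A shares 94.3% of its coding bases with RPL36A-HNRNPH2, which had no count, and RPL26 shares 71.0% with AC135178.2, which had none either. RPL39L shares none. RPL22, with 59.9% shared, stood at 436 and RPS15A at 419. The highest levels on this scale were RPL41 at 14540, RPL8 at 3817, RPS18 at 3502, RPLP1 at 3086 and RPS2 at 2809. RPL41 has only 75 coding bases, so that its level per coding length counts reads from untranslated parts against a very short length. Ribosomal protein genes have many processed pseudogenes, and reads shared with these can be lost or moved. Over 71 members of at least 100 CPM, the level per coding kilobase and the number of named pseudogenes had a Pearson r of -0.084, a correlation across genes of the same libraries. The limit of 100 CPM leaves out RPS10, RPL36A and RPL26, so this correlation cannot show whether their reads were lost.

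Several members singled out for their roles or paralogs were not called. RPL5, a partner of RPL11 in the 5S particle that binds MDM2, was at 1510, 1499 and 1531 CPM in controls and at 1596, 1574 and 1606 CPM in BARD1-expressing libraries. The groups separated narrowly without passing the test (0.073 ± 0.044, adjusted p = 0.236 by edgeR). RPL11 was at 0.006 ± 0.059, with a 95% interval from -0.12 to 0.13. RPS6, the target of S6 kinase, was at 0.008 ± 0.046, and RPS27A, which is made as a fusion with ubiquitin, at 0.039 ± 0.047. RPSA, also known as the laminin receptor precursor, was at -0.031 ± 0.044, the X-linked RPS4X at -0.038 ± 0.046 and RPS19, the gene most often mutated in Diamond-Blackfan anaemia, at -0.054 ± 0.049. RPL22, which is deleted or mutated in several cancers, was at 0.025 ± 0.056, and RPL3, which lies beside the peptidyl transferase centre, at 0.012 ± 0.050. RPL41 was at 0.030 ± 0.10. None of the members in this paragraph passed the test, whereas RPS3 and RPL13A, which also have roles outside the ribosome, were called higher as given above.

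Libraries of the same group differed from each other in a pattern that many members shared. The median log2 ratio of the 76 members to the control mean was 0.057, -0.006 and -0.046 for controls 1 to 3, and for the BARD1-expressing libraries it was -0.074, 0.132 and 0.088. Among the 71 members of at least 100 CPM, control library 1 was the highest control for 55 and control library 3 the lowest for 50. BARD1-expressing library 2 was the highest of its group for 57 and library 1 the lowest for 62. The median coefficient of variation of these members was 3.61% in controls and 7.52% in BARD1-expressing libraries, beside 3.46% and 4.38% for 2258 other genes of that level with a known coding length. BARD1-expressing library 1 was also the shallowest library, and the part of depth in this spread was not tested.

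**Figure D3:**
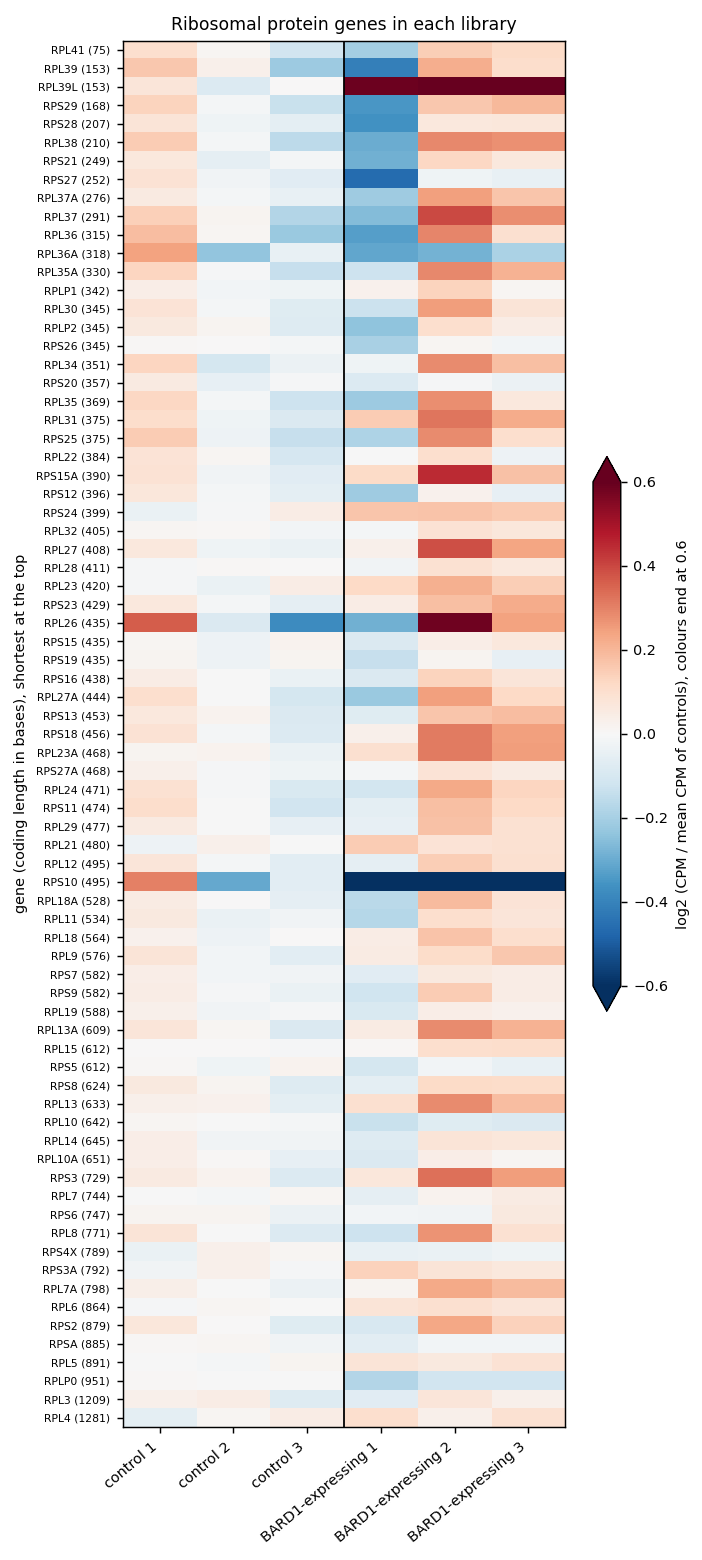
Log2 ratio of each reported member's CPM to its mean in the controls (colour, ending at 0.6 on either side) in the 6 libraries (columns), with members ordered by coding length from 75 bases at the top to 1281 at the bottom. Most upper rows are blue in BARD1-expressing library 1 and red in library 2, and the lower rows are mostly paler. Exceptions among the upper rows are RPL39L, at 0.587 in library 1, and RPS27, at -0.027 in library 2.

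The differences within a group tended to be larger for shorter members. RPL39, with 153 coding bases, was 0.38 higher (log2) in control library 1 than in control library 3 and 0.63 higher in BARD1-expressing library 2 than in library 1. The same differences were 0.41 and 0.62 for RPL36, with 315 bases, and 0.32 and 0.66 for RPL37, with 291. RPL5, with 891 bases, differed by -0.020 in both pairs, and RPL4, the longest member with 1281 bases, by -0.106 and -0.071. For the 9 abundant members under 300 bases the medians were 0.216 and 0.46, and for the 14 of at least 700 bases they were 0.019 and 0.055. Not all long members were level between the libraries: RPL8, with 771 bases, was 0.40 higher in BARD1-expressing library 2 than in library 1, and RPS2, with 879 bases, was 0.33 higher.

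Over the 71 abundant members, log2 coding length and the difference had a Pearson r of -0.556 within the controls and -0.633 within the BARD1-expressing libraries. Over the 2258 other genes these were -0.101 and -0.193. The 2 sets cover unlike lengths, since 1878 of the other genes but only 14 of the members have at least 700 bases. The other genes also differed by length. Their median differences were 0.064 and 0.147 for the 37 under 300 bases and -0.047 and -0.045 for the 1878. The 2 within-group differences, control library 1 over 3 and BARD1-expressing library 2 over 1, had a Pearson r of 0.852 over the members and 0.652 over the other genes. The pairs of libraries were chosen by the order just described, the genes of a library share its preparation and scaling, and these correlations are descriptions. Between the groups no such relation to length was seen: the r of coding length with the log2 fold change was 0.027 over the same members.

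**Figure D4:**
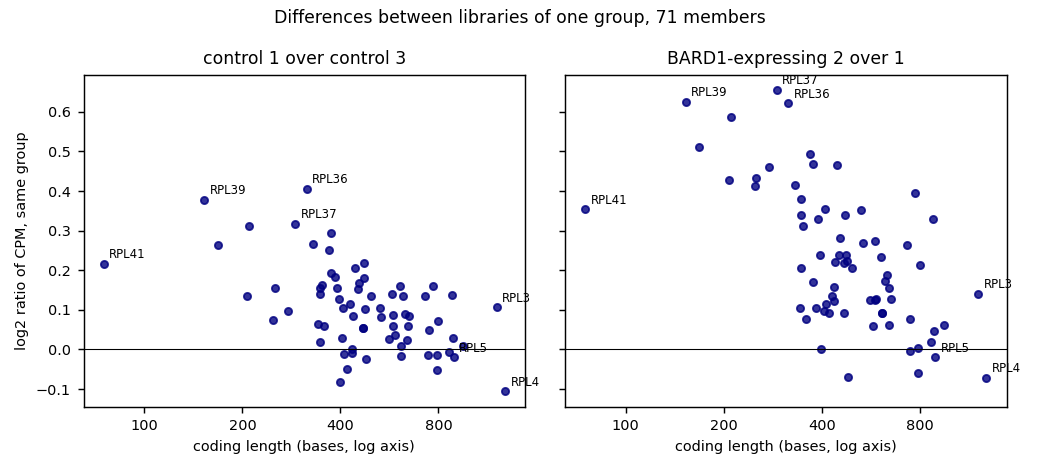
Log2 ratio of CPM between libraries of 1 group (y axis; control 1 over 3 on the left, BARD1-expressing 2 over 1 on the right) against coding length in bases (x axis, log scale) for the 71 members of at least 100 CPM. Short members such as RPL39, RPL36 and RPL37 lie highest in both panels, and RPL4 and RPL5 lie near or below 0.

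The wide spread of the short members is reflected in their intervals. RPL37 was at 297, 272 and 238 CPM in controls and at 225, 354 and 326 CPM in BARD1-expressing libraries, and its log2 fold change of 0.17 had a 95% interval from -0.40 to 0.74. RPL38, with 210 coding bases, was at 0.12, with an interval from -0.42 to 0.66, and RPS29, with 168, at 0.028, with an interval from -0.44 to 0.50. RPS27, with 252, was at -0.161, with an interval from -0.46 to 0.14. Differences of the size found for RPL31 or RPL13 were not detectable for these genes with these libraries.

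Calls were also counted by the kind of start. Of the 45 tested members with a TOP start, 8 were called higher and 2 lower, with a median log2 fold change of 0.059. Of the 15 tested members with another annotated start, 1 was called higher (RPL27) and none lower, with a median of 0.014. Some of these, RPL27 among them, have a pyrimidine run further in, so these classes may not separate TOP mRNAs from others. Among 735 other tested genes with a TOP start, 20.3% were called higher and 10.3% lower, with a median of 0.019, beside 18.1% and 12.5% of 9945 genes with another start. The members called higher had tracts as short as the 6 bases of RPL13 and as long as the 16 of RPL7A. RPL39, with 19 bases the longest tract among the 61 members with an entry, was not called.

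Ribosomal protein genes outside the set included a deeper fall than that of any member. RPS14, which lies in the chromosome 5 stretch, rose from 840, 823 and 802 CPM in controls to 1128, 1311 and 1232 CPM in BARD1-expressing libraries (0.57 ± 0.052, adjusted p = 6.40e-09 by edgeR). RPL17, on chromosome 18, fell from 21.4, 20.2 and 17.3 CPM to 8.97, 12.7 and 8.36 CPM (-0.94 ± 0.13). RPL17 stood at only 26.9 CPM per coding kilobase over all libraries, beside a median of 1266 for the tested members. Shared coding bases were looked up for the members only, so the values of RPL17 are uncertain as well. Of 11 tested genes in this list of paralogs, fusions and left-out genes, 4 (36.4%) were called higher and 1 (9.09%) lower. Over all genes tested these shares were 16.5% and 12.4%. RPS14, 1 of the 4, and RPL17, the 1 called lower, are listed because their regions had shifted in earlier results of these data. The shares of this list are therefore no test against all genes. The median of the list was 0.054. RPL39L, a member, is another of the 4. RPL26L1, the paralog of RPL26, rose by 0.29 ± 0.053, and RPS27L, a paralog of RPS27, by 0.29 ± 0.079. RPS27L stood at 8.23%, 7.78% and 8.95% of RPS27 per coding base in controls and at 14.2%, 10.1% and 10.6% in BARD1-expressing libraries. The percentage was highest in library 1, where RPS27 was lowest at 234 CPM. RPL26L1 stood at 255%, 348% and 418% of RPL26 in controls and at 462%, 272% and 343% in BARD1-expressing libraries, so that this pair overlapped between groups. The percentages of RPL22L1, RPL7L1 and RPL36AL to their paralogs overlapped as well. Counts of RPL26 and RPL36A are low and most of their coding bases are shared with other genes, so percentages of these are uncertain. RPL22L1 (0.033), RPL7L1 (0.030), RPL36AL (0.058), FAU (-0.011), which is made as a fusion with a ubiquitin-like protein, and the small subunit scaffold RACK1 (0.054) did not pass the test.

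Of 81 tested ribosomal pseudogenes, from 1132 in the table, 3 (3.70%, beside 16.5% of all genes tested) were called higher and 26 (32.1%, beside 12.4%) lower, with a median of -0.203. RPSAP19, a copy of RPSA, fell from 10.2, 11.2 and 10.7 CPM to 3.54, 4.34 and 4.25 CPM (-1.38 ± 0.14), while RPSA itself was at -0.031. RPS3AP26 fell by 0.99 and RPL41P1 by 0.86 on the log2 scale, whereas their parents RPS3A (0.092) and RPL41 (0.030) were not called. RPL9P9, the most abundant of the changed copies, rose from 354, 342 and 335 CPM to 415, 429 and 416 CPM (0.29 ± 0.047). Its parent RPL9 was at 0.11 ± 0.052. Reads of parents and copies may be assigned to either, so these values are uncertain. All pseudogenes together took 0.281 ± 0.0089% of counts in controls and 0.272 ± 0.015% in BARD1-expressing libraries, and with them added the members' share was 5.78% and 5.97%.

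More of the genes that build ribosomes were called lower than higher. Of 52 ribosome biogenesis genes, 22 (42.3%, beside 12.4% of all genes tested) were called lower and 2 (3.85%, beside 16.5%) higher, and the median was -0.131. The median ratio to the control mean was -0.159, -0.157 and -0.114 in BARD1-expressing libraries 1 to 3, so that, unlike for the ribosomal proteins, library 1 did not stand apart. UTP20, a scaffold of the small subunit processome, fell from 194, 209 and 219 CPM to 155, 152 and 150 CPM (-0.45 ± 0.054, adjusted p = 6.26e-07 by edgeR). RRP12, an export factor of pre-ribosomes, was at -0.34 ± 0.052, NOLC1, a nucleolar chaperone of small nucleolar particles, at -0.31 ± 0.047, and the nucleolar histone chaperone NPM1 at -0.27 ± 0.046. The 2 called higher were NOP53 (0.25 ± 0.061), a nucleolar factor of large subunit maturation, and TCOF1 (0.28 ± 0.051), a factor of rRNA transcription that lies in the chromosome 5 stretch. The difference between the medians of the 2 groups of genes was not tested.

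**Figure D5:**
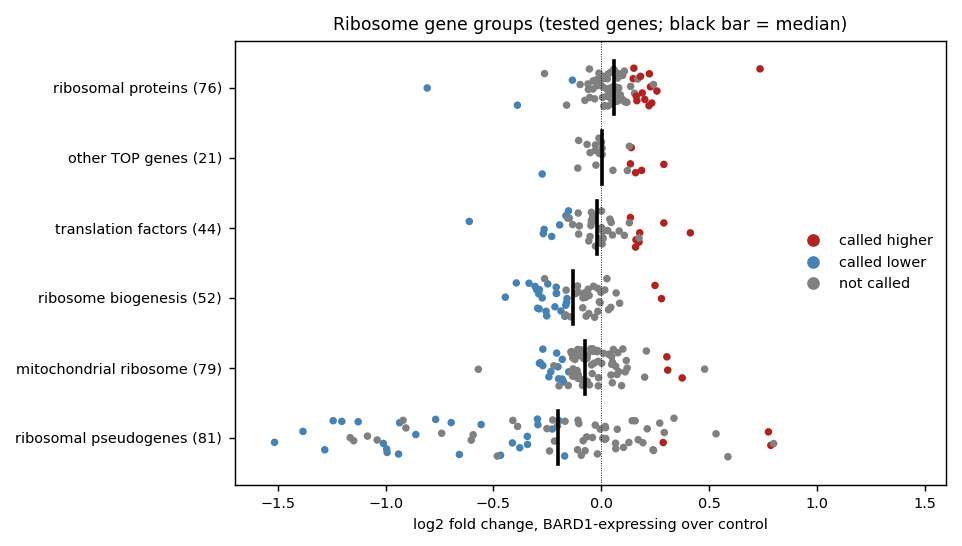
Log2 fold change (x axis, BARD1-expressing over control) of every tested gene in 6 ribosome-related groups (rows, number tested in brackets), coloured by call, with the median as a black bar. The bar lies at 0.059 for the ribosomal proteins, at -0.131 for ribosome biogenesis and at -0.203 for ribosomal pseudogenes.

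Of 21 tested genes from other TOP mRNAs, 5 (23.8%, beside 16.5% of all genes tested) were called higher, with a median of 0.001. Called lower was 1 (4.76%, beside 12.4%), NPM1. EEF1A1, the elongation factor that brings tRNA to the ribosome, rose from 15120, 16090 and 15780 CPM to 19520, 18780 and 19180 CPM (0.29 ± 0.043, adjusted p = 1.20e-05 by edgeR). TPT1, a growth-related TOP mRNA, rose by 0.19 ± 0.046. EEF1G, the gamma subunit of the elongation factor complex, had counts in only 1 library, at 0.0876 CPM, and was not tested. Bases shared with other genes were looked up for the members only, so the level of EEF1G is uncertain. The list of translation factors shares 11 genes with this one, EEF1G included. Among its 44 tested genes, 7 (15.9%) were called higher and 8 (18.2%) lower, with a median of -0.018. ETF1, the release factor in the chromosome 5 stretch, rose by 0.41 ± 0.051, and EIF5B, which joins the subunits, fell by 0.23 on the log2 scale.

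Of 17 chaperones and importins of ribosomal proteins, 1 (5.88%, beside 16.5% of all genes tested) was called higher, NACA (0.14 ± 0.046). Called lower were 2 (11.8%, beside 12.4%), BCCIP (-0.27 ± 0.051) and the importin IPO5 (-0.21 ± 0.055). The median of the 17 was -0.070. Of 31 tested regulators, 7 (22.6%) were called higher and 2 (6.45%) lower, with a median of 0.009. LARP1, the TOP-binding protein, which lies in the chromosome 5 stretch, rose by 0.46 ± 0.047, and the translation repressor EIF4EBP1 by 0.37 ± 0.11. The calls of EIF4EBP1 and of NACA were each lost in 7 of 15 alternatives. MYC fell by 0.19 on the log2 scale. The cell cycle inhibitor CDKN1A rose by 1.18 ± 0.10, while MDM2, the partner of RPL5 and RPL11, was at 0.009 ± 0.080. Of 79 genes of the mitochondrial ribosome, 3 (3.80%, beside 16.5% of all genes tested) were called higher and 13 (16.5%, beside 12.4%) lower, with a median of -0.074. MRPS27 (-0.27 ± 0.052) and MRPL19 (-0.27 ± 0.065) fell, and MRPL22, in the chromosome 5 stretch, rose by 0.38 ± 0.067.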

How the data were processed

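The values are raw read counts per gene as the authors deposited them, whole numbers with a different total in each library. The submitters' processing notes name the GRCh38 build and, among tools, featureCounts 1.5.0-p3, HISAT2 2.0.5 and DESeq2 1.20.0. Counting options are not stated there, and per the labels' protocols poly(A)-selected cDNA was primed with random hexamers. All 58735 genes matched GENCODE 29 in start and end.

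Tests used edgeR 4.0.16 (R 4.3.3) with filterByExpr, TMM scaling, the robust quasi-likelihood F test on group alone (4 residual degrees of freedom, 6 libraries) and Benjamini-Hochberg adjustment over 15400 genes, with a threshold of 0.05. SE and 95% intervals come from that fit. The scripts were tested on simulated data. Replicates differed beyond sampling noise (chi-square per degree of freedom 3.41 to 8.11). Coding length is that of the principal GENCODE transcript. Alternatives were DESeq2 1.42.0, limma-voom (limma 3.58.1), other scalings and filters, no robust step, a replicate block, and each library left out.

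The members and gene lists were chosen with earlier results of these data known. Named genes were members that failed the filter, the 8 with the smallest p in each direction, extremes of change and level, members with fixed roles, and the 3 smallest p of each list. Not every gene the rule gives is described, and some genes, left out of the plots of single members too, are not reported here although the counts include them.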

Additional observations from a re-analysis of the deposited data

How the results depend on the processing

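Over the 15 alternatives, BARD1 kept its direction and call. Outside the fits that leave out a library, 9 to 13 members (11.8% to 17.1%) were called higher and 2 to 4 (2.63% to 5.20%) lower. Of all genes tested in those fits, 8.51% to 16.7% were called higher and 7.22% to 14.2% lower, the least with no filter. With each library left out, members called higher ranged from 5 to 29, and the cause was not tested. The members' median log2 fold change ranged from -0.002 (without BARD1-expressing library 2) to 0.103 (without library 1). Both lie within the replicate SD of 0.085 of the reported 0.059, but that SD is larger than 0.059 itself. The sign of the median thus depended on BARD1-expressing library 2. The difference in share ranged from 0.042 to 0.406 percentage points. Of 960 values for named genes, 914 kept direction and call, 43 lost the call, 3 gained it and 0 reversed.

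Replicate numbers did not pair the libraries: same-numbered deviations had r of -0.112, -0.031 and -0.009, and no library correlated best with its own number. With the replicate block 11 members (14.5%, beside 14.9% of all genes tested) were called higher and 2 (2.63%, beside 11%) lower. In that fit, other TOP genes called higher numbered 2, chaperones and importins higher 0, regulators lower 1 and mitochondrial ribosome lower 6.

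Upper-quartile scaling (13.8% of all genes lower) gave 2 paralogs lower, 2 other TOP genes lower and 6 chaperones and importins lower. Library totals alone (13.2% of all genes lower) gave 2, 2 and 4. With no filter (8.51% of all genes higher), 3 other TOP genes and 0 chaperones and importins were higher. With at least 10 counts in every library (14.2% of all genes lower), 4 chaperones and importins were lower.

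With each library left out, the higher and lower counts ranged from 2 to 6 (higher only) for other TOP genes, 2 to 8 and 5 to 9 for translation factors, 1 to 2 (higher only) for biogenesis, 0 to 2 and 2 to 6 for chaperones and importins, 3 to 7 and 1 to 2 for regulators, and 2 to 8 and 5 to 13 for the mitochondrial ribosome. Over all genes tested in those fits, the shares ran from 12.3% to 16.6% higher and from 8.66% to 13.5% lower. Depth limits RPS10, with 30 counts in 1 library, and the overlapping gene models limit what its counts mean.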
